A study of Mus musculus with 6 samples.

Results

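The 7 genes Esm1, Trp53i11, Chst1, Cxcr4, Mcam, Plaur and Fscn1 were taken by name from the 20822 genes of the count table, and all 7 were found there. They are names that the sprouting literature attaches to tip cells, beyond the 30 other tip cell genes on a separate list. The retinas were from mice at postnatal day 14 (P14) of oxygen-induced retinopathy (OIR), in which mouse pups are kept in high oxygen, lose part of the retinal vessels, and regrow them, partly as abnormal tufts, after the return to room air. All groups went through OIR, and all suspensions were enriched for endothelial cells (ECs) with beads against CD31. The groups were eNOS+/+ (C57BL/6J) and eNOS-/-, the latter homozygous for a knockout allele of the endothelial nitric oxide synthase gene Nos3 and backcrossed to C57BL/6J, with 3 replicates each and 3 to 5 retinas pooled in a replicate. Single cells were measured by Drop-seq, which tags each captured mRNA with a unique molecular identifier (UMI) near its 3' end.

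During sprouting angiogenesis a tip cell leads each new vessel, sends out filopodia that read guidance cues, digests matrix on its way, and is followed by proliferating stalk cells. VEGF from hypoxic retina drives the tip state, and Notch signalling between neighbours limits it. The members act at different points of this programme. Esm1 (endocan) is a secreted proteoglycan, Chst1 a sulfotransferase of keratan sulfate, Cxcr4 the receptor of the chemokine Cxcl12, Mcam (CD146) a surface adhesion molecule also known from pericytes, Plaur the urokinase receptor, Fscn1 (fascin) the actin bundler of filopodia, and Trp53i11 a p53-inducible protein.

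The sequences just before the RefSeq start sites are shown for the 4 members whose windows held a cyclic AMP response element, an AP-1 site or a TATA box, as the clearest differences among the members in sequence. They are the 250 bases before the RefSeq start on GRCm38.p6, 5' to 3' on the gene's strand, and capitals mark every match of the motifs searched.
Fscn1: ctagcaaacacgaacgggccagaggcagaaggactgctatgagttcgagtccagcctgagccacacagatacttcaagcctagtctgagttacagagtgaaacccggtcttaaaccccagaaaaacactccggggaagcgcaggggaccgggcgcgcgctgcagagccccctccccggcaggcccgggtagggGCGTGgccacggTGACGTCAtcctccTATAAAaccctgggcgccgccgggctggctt
Mcam: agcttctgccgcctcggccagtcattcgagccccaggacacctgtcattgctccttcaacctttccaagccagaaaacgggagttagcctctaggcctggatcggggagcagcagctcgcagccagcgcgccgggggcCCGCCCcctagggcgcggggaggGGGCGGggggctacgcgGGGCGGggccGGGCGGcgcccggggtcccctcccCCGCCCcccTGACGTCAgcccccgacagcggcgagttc
Plaur: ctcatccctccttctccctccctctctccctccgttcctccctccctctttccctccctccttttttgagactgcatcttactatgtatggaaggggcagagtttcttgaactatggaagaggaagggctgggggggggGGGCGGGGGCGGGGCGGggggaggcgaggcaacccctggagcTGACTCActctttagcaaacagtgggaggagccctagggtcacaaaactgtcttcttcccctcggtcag
Cxcr4: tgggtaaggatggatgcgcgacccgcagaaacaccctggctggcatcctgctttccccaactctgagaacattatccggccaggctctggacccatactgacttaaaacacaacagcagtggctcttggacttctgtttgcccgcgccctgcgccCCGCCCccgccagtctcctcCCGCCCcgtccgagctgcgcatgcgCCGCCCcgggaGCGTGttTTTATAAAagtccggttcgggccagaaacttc
These windows lie at chr5:142960105-142960354 (Fscn1), chr9:44134408-44134657 (Mcam), chr7:24462233-24462482 (Plaur) and, on the minus strand, chr1:128592300-128592549 (Cxcr4). There were 7 motifs, each searched on both strands, and matches could overlap, as the GC boxes of Plaur and the TATA matches of Cxcr4 did.

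The cyclic AMP response element, TGACGTCA, was in 2 of the 7 windows, those of Mcam, where it started 29 bases before the start site, and Fscn1, where it started 45 bases before it. Of the windows of all 32851 promoters, 1.55% held it. The AP-1 letters TGACTCA stood 69 bases before the start of Plaur alone, against 4.46% of all windows. The TATA box, TATAAA, was in those of Cxcr4 and Fscn1, against 12.4% of all. The GC box, GGGCGG, was in 4 windows (Trp53i11, Cxcr4, Mcam and Plaur), against 32.7% of all. Of the cores bound by hypoxia-inducible factors, GCGTG was in 4 windows (Esm1, Trp53i11, Cxcr4 and Fscn1), against 28.2% of all. The other core, ACGTG, was in 0 of 7, against 16.6% of all. The ETS letters CCGGAAG were in 0 of 7, against 6.91% of all. Chst1, at chr2:92600867-92601116, held no match at all. The GC content was 73.6% for Mcam, 71.2% for Trp53i11 and 44% for Esm1, with a median of 52.4% over all windows. A match gives letters only and says nothing of what binds there.

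In the GENCODE annotation the genes lie on GRCm38 at chr1:128588199-128592293 (Cxcr4), chr2:92599707-92615250 (Chst1), chr2:93187548-93201759 (Trp53i11), chr5:142960343-142973185 (Fscn1), chr7:24462484-24475968 (Plaur), chr9:44134469-44142727 (Mcam) and chr13:113209659-113218098 (Esm1). For 3 of them the RefSeq start lies inside the GENCODE gene, so that all 250 bases of the Chst1 window, 189 of the Mcam window and 12 of the Fscn1 window lie within it. All 7 are protein-coding, and Chst1 and Trp53i11 both lie on chromosome 2. The 8944 cells carried the study's own names for 10 cell types, among them 1428 Tip ECs, 1162 Proliferative ECs and 3335 cells labelled only ECs. The study describes tip, structural and proliferative ECs, so the cells labelled only ECs were taken here as its Structural ECs. The labels do not state this, and the EC counts that the study prints for each genotype are lower than those of the labels. Trp53i11 and Chst1 are genes by which the study itself described the Tip ECs, and all types were clustered from these UMIs, so the levels by cell type are a description and carry no test.

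UMIs were summed over the cells of a type in each replicate, and levels are UMIs per 1000000 UMIs of the sum (CPM). The sums held 142593 to 715593 UMIs (Tip ECs), 246958 to 1145608 UMIs (Structural ECs) or 78192 to 668540 UMIs (Proliferative ECs), and the replicates had 415 to 3710 cells. The summed CPM of 8 EC markers was 5516 to 6508 in Tip ECs and 4834 to 5760 in Structural ECs. Replicates of one genotype shared no barcode. In each EC sum, however, 16.4% to 46.4% of the cells belonged to a family of 2 to 4 barcodes that differed only in the last of 12 bases, so that some cells may be counted more than once. The Structural ECs of eNOS-/- replicate 3 stood apart, with UMIs of 2 or more of 8 mural cell markers in 31 of 186 cells (16.7%) and a summed mural level of 3767 CPM against 12.5 to 169.0 CPM in the other 5. No mural marker was at 0 over the Structural ECs as a whole.

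The matrix and adhesion members are given first. Esm1 in Tip ECs was 248.9, 277.8 and 174.6 CPM in eNOS+/+ replicates 1 to 3 and 378.9, 366.1 and 56.1 CPM in eNOS-/- replicates 1 to 3. In Structural ECs it was 282.0, 56.7 and 27.7 CPM against 45.4, 60.8 and 18.7 CPM. Tip ECs were higher in 5 of 6 replicates, by up to 8.35-fold, and eNOS+/+ replicate 1 was the exception at 0.883-fold. The mean was 250.4 ± 121.8 CPM for the Tip, 81.9 ± 99.4 CPM for the Structural and 35.3 ± 26.8 CPM for the Proliferative subtype (SD, n = 6), with overlapping replicates. The exception came from a few barcodes. Of the 113 Esm1 UMIs in the Structural ECs of eNOS+/+ replicate 1, 84 (74.3%) lay in 4 barcodes of 1 family, and without that family the level was 72.4 CPM. With 1 cell kept per barcode family, Esm1 was higher in Tip ECs in 6 of 6 replicates. The plot of Esm1 UMIs shows that split.

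**Figure D1:**
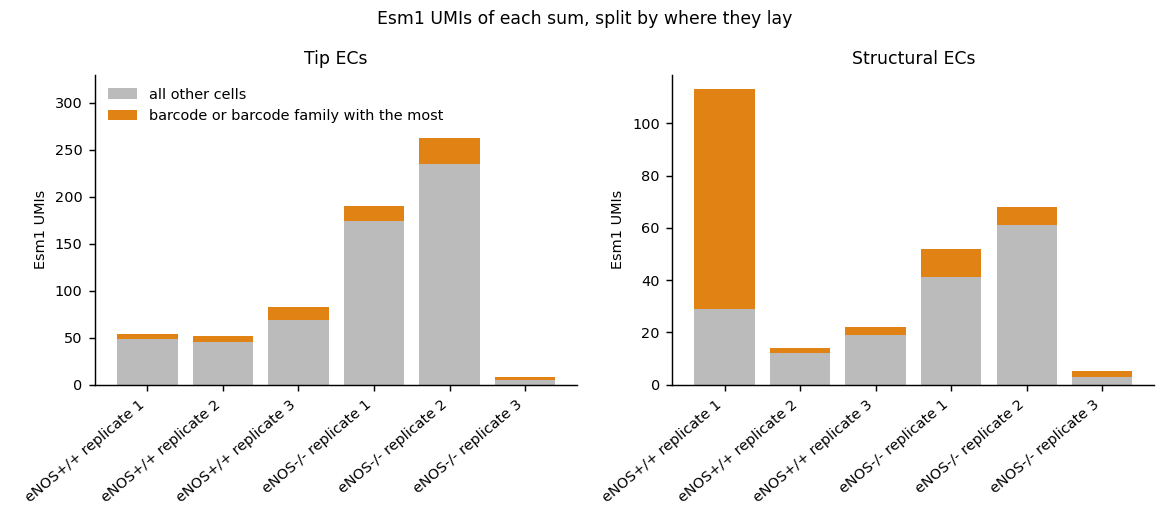
Esm1 UMIs (y axis) in the sums of Tip ECs (left) and Structural ECs (right) of the 6 replicates (x axis), with the share from the single barcode or barcode family that held the most in orange. In the Structural ECs of eNOS+/+ replicate 1, 84 of 113 UMIs came from 1 family.

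Chst1, which adds sulfate to glycan chains, was 350.2, 309.8 and 465.0 CPM in the Tip ECs of eNOS+/+ and 410.8, 338.2 and 210.4 CPM in those of eNOS-/-. The Structural ECs had 47.4, 32.4 and 90.7 CPM against 57.6, 59.9 and 160.7 CPM. No Structural or Proliferative value reached the lowest Tip value. The ratio of Tip over Structural ECs was 5.13 to 9.56 in 5 replicates and 1.31 in eNOS-/- replicate 3. Without the ECs that carried 2 or more mural markers, the Structural level of that replicate was 57.4 CPM. The ratio of the means over replicates was then 6.09 in place of 4.65. The 57 mural cells of the same replicate, however, held 0 Chst1 UMIs. Of its 43 Structural Chst1 UMIs, 11 lay in 1 barcode. Why the level fell was not tested.

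Mcam, the adhesion molecule, was 668.2, 1084.4 and 850.0 CPM in Tip ECs of eNOS+/+ and 682.0, 686.1 and 645.2 CPM in those of eNOS-/-. Structural ECs had 234.6, 267.3 and 338.8 CPM against 307.3, 240.6 and 452.2 CPM, and did not overlap with Tip ECs. Mcam was the member whose highest level was outside the ECs. Mural cells, the pericytes and smooth muscle around vessels, had 1031.3 ± 258.4 CPM (n = 5 sums of at least 20000 UMIs) beside 769.3 ± 170.9 in Tip ECs (n = 6), and these overlapped. Tip ECs were 1.43- to 4.06-fold above Structural ECs, lowest again in eNOS-/- replicate 3, whose Structural level without the cells with mural markers was 292.7 CPM.

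Of the receptors, Cxcr4 was 285.7, 261.8 and 279.8 CPM in Tip ECs of eNOS+/+ and 368.9, 430.4 and 147.3 CPM in those of eNOS-/-. Structural ECs had 67.4, 16.2 and 57.9 CPM against 116.1, 73.3 and 119.6 CPM. The 6 Tip values lay above all values of Structural and Proliferative ECs, and the ratio to Structural ECs ran from 1.23 in eNOS-/- replicate 3 to 16.2 in eNOS+/+ replicate 2. The highest ratio rested on 4 Cxcr4 UMIs in the Structural ECs of that replicate, and was 10.4 with 10 CPM added to each value. In mural cells Cxcr4 averaged 71.8 ± 54.9 CPM (n = 5), within the range of Structural ECs.

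Plaur, the receptor that holds urokinase on the cell surface, was the scarcest member, with 133 UMIs in all Tip ECs. It was 41.5, 90.8 and 67.3 CPM in Tip ECs of eNOS+/+ and 39.9, 62.9 and 70.1 CPM in those of eNOS-/-, and 15.0, 72.9 and 30.2 CPM against 16.6, 25.04 and 56.1 CPM in Structural ECs. The values overlapped between the subtypes, although within each replicate the Tip sum was higher, by 1.25- to 2.77-fold. With 1 cell per barcode family this held in 5 of 6 replicates. Immune cells had 59.9 ± 62.4 CPM (n = 3), next to 62.1 ± 19.2 CPM in Tip ECs.

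Fscn1, the actin bundler, was 460.9, 657.1 and 692.2 CPM in the Tip ECs of eNOS+/+ and 558.4, 448.6 and 469.9 CPM in those of eNOS-/-. In Structural ECs it ranged from 220.9 to 303.7 CPM, below every Tip value, and the ratio was 1.74 to 2.72 in the 6 replicates. Proliferative ECs had 328.5 ± 118.0 CPM (n = 6), and in eNOS-/- replicate 3, with 35 Proliferative cells, they exceeded the Tip ECs (549.9 against 469.9 CPM). Neurons had 162.0 ± 66.2 CPM (n = 4), the highest mean of Fscn1 outside the ECs.

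Trp53i11, the p53-inducible member, was 755.8, 571.6 and 930.0 CPM in Tip ECs of eNOS+/+ and 969.2, 758.8 and 771.4 CPM in those of eNOS-/-. Structural ECs had 117.4 to 254.1 CPM and Proliferative ECs 114.9 to 294.1 CPM, so that the lowest Tip value was above all of them. The ratio to Structural ECs was 3.04 to 5.71, the narrowest range among the 4 members with a ratio of means above 3. Structural ECs (182.6 ± 52.2 CPM) and Proliferative ECs (172.9 ± 66.9 CPM) differed by less than their spread (SD, n = 6).

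**Figure D2:**
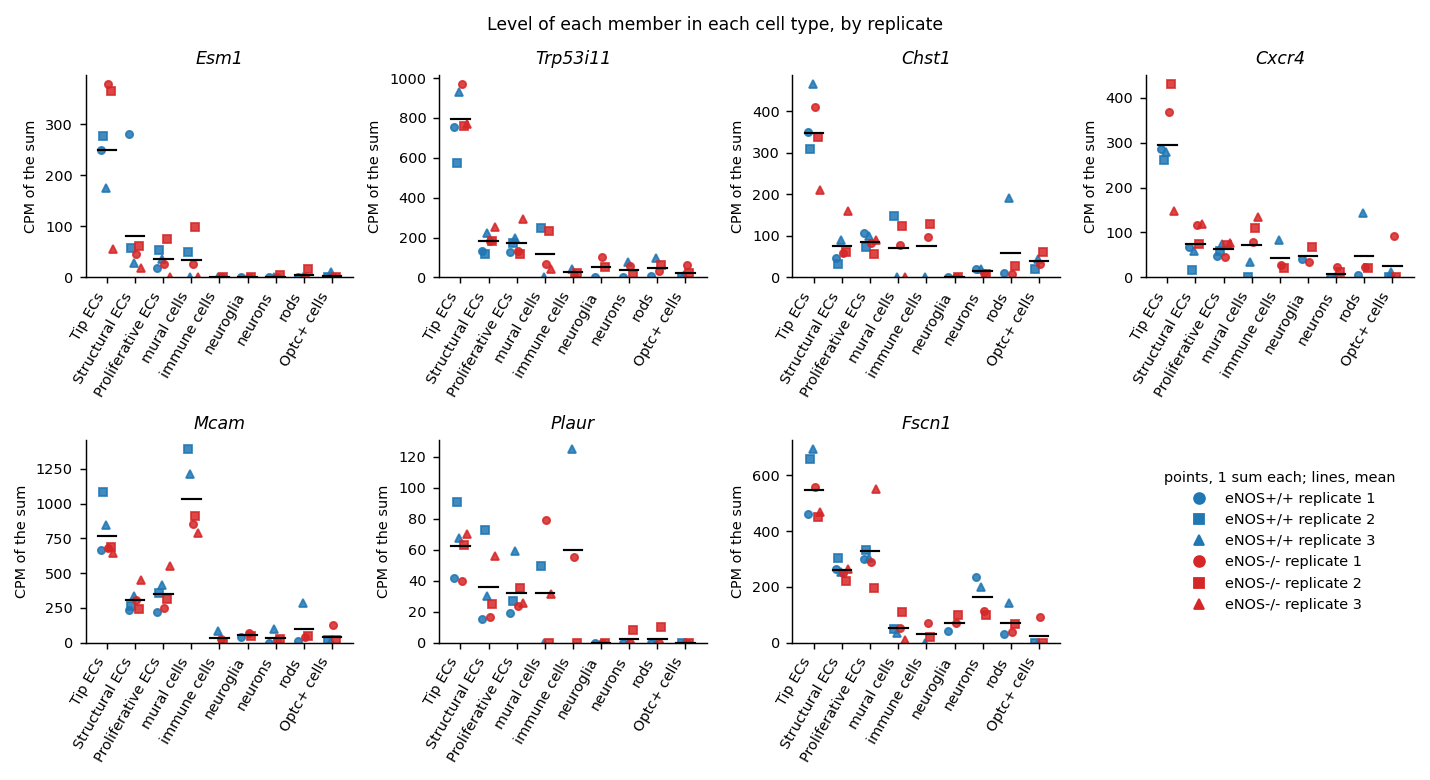
Level of each member (y axis, CPM of the sum) by cell type (x axis), with 1 point for each replicate's sum and a line at the mean. Tip ECs are highest for 6 members, and mural cells for Mcam.

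Side by side, 6 of the 7 members were higher in Tip than in Structural ECs in 6 of 6 replicates, where 8.57% of the 6264 genes with at least 200 UMIs in ECs were. Higher than both other subtypes in every replicate were 5 members, all but Esm1 and Fscn1, beside 5.11% of genes. Ordered by the mean log2 ratio over Structural ECs, with 10 CPM added to each value, Chst1 stood at place 5 of 6264 (2.19), Trp53i11 at 8 (2.09), Cxcr4 at 13 (1.95), Esm1 at 15 (1.78), Mcam at 44 (1.31), Fscn1 at 92 (1.03) and Plaur at 193 (0.75). The median was 1.78 over the members and -0.07 over all genes. The order of neighbours was not stable against replicate spread, since the SD of the log2 ratio was 0.92 for Chst1, 1.02 for Cxcr4 and 1.09 for Esm1, and 0.31 for Trp53i11.

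**Figure D3:**
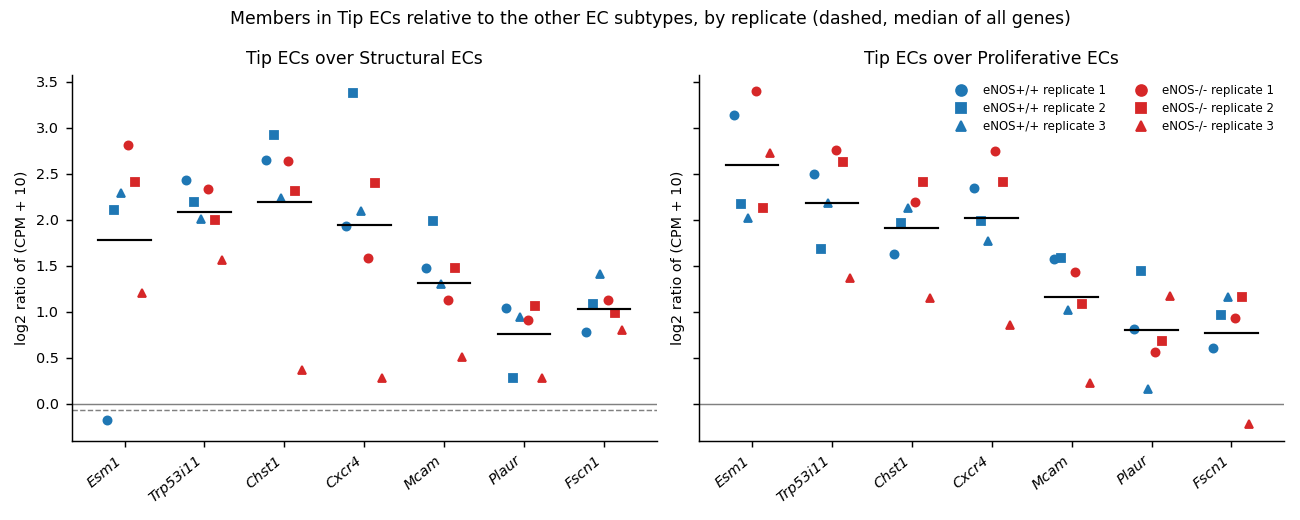
Log2 ratio of Tip over Structural ECs (left) and of Tip over Proliferative ECs (right) for each member (x axis), with 10 CPM added to each value, 1 point per replicate and the median of all genes dashed in the left panel. All points for Trp53i11, Chst1, Cxcr4, Mcam and Plaur are above 0 in both panels.

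Shares of cells with a UMI were compared at an equal depth of 500 UMIs drawn from each cell, because Tip ECs had a median of 1007 UMIs and Structural ECs of 491. This kept 1091 Tip, 1647 Structural and 807 Proliferative ECs and left out 337, 1688 and 355 shallower cells. Rods are given beside them as a reference (421 cells kept, 1087 left out). Free RNA, mixed cells and expression by the rods themselves were not told apart in these shares. Trp53i11 was found in 32.4% of the Tip ECs, 6.98% of the Structural ECs and 0.713% of rods. Mcam had 29.7%, 13.4% and 1.90%, and 40.1% in mural cells. Fscn1 had 24.7%, 11.3% and 1.66%. These 3 were the members most often found in Tip ECs.

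Chst1 was found in 16.5% of Tip ECs, 3.28% of Structural ECs and 0.713% of rods, Cxcr4 in 13.5%, 3.34% and 0.713%, and Esm1 in 9.62%, 2.31% and 0.238%. Plaur was found in 1.92% of Tip ECs (95% Wilson interval 1.26% to 2.92%), 1.40% of Structural ECs (0.932% to 2.09%) and 1.61% of Proliferative ECs, so no difference was detectable at this depth. It was in 0 of 421 rods, which allows a share of rods with a UMI at this depth of up to 0.713% (3 counts), and limits no share of cells that express the gene. At full depth the shares in Tip ECs were 18.4% for Esm1, 51.3% for Trp53i11, 32.3% for Chst1, 26.8% for Cxcr4, 48.9% for Mcam, 7.21% for Plaur and 44.2% for Fscn1. Intervals cover counting error only and treat barcodes of a family as separate cells.

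**Figure D4:**
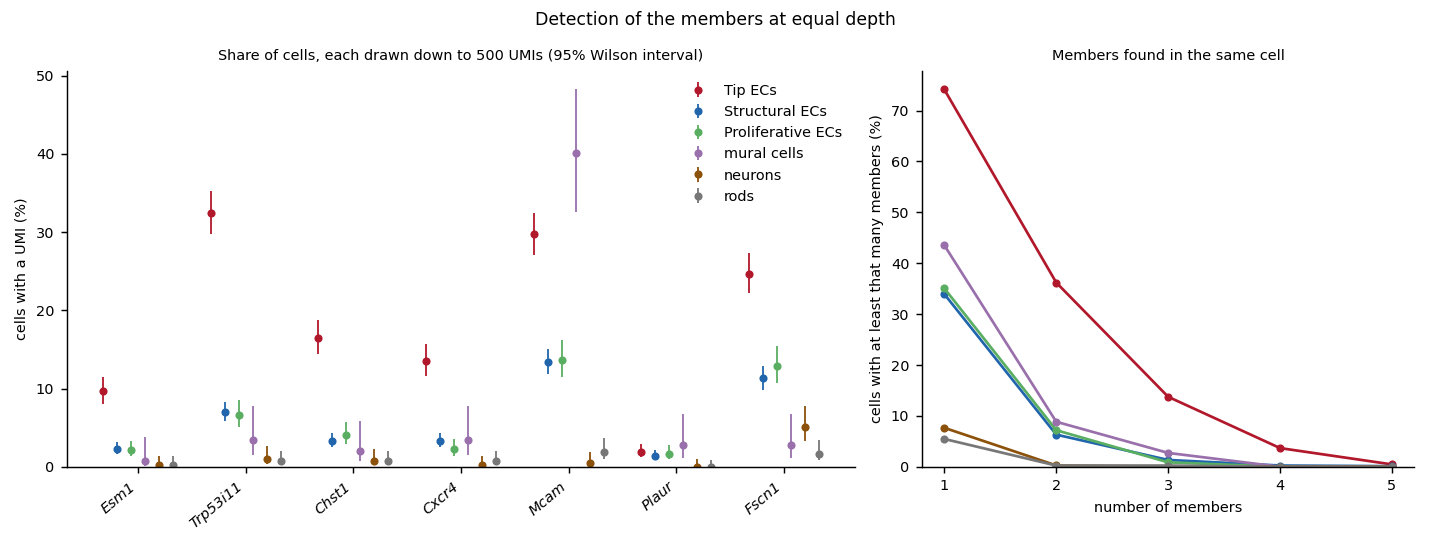
Left, percent of cells with a UMI of each member at 500 UMIs drawn from every cell, by cell type, with 95% Wilson intervals; right, percent of cells with at least a given number of members. The Tip EC line lies above the other types, with 36.2% of cells at 2 or more members.

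At least 1 member was found in 74.2% of Tip ECs at 500 UMIs, against 33.9% of Structural ECs, 35.1% of Proliferative ECs, 43.5% of mural cells and 5.46% of rods. At least 2 were found in 36.2% of Tip ECs, 6.31% of Structural ECs, 7.19% of Proliferative ECs and 0.238% of rods, and at least 3 in 13.7%, 1.34% and 0.867% of the EC subtypes. By replicate, the share with 2 or more was 28.1% to 39.3% in Tip ECs and 4.29% to 8.74% in Structural ECs, with no overlap, while Proliferative ECs ranged from 4.0% to 20.8%, the latter among 24 cells. A single Tip EC thus held few of the members at this depth, and none held all 7.

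Within Tip ECs, some members were found in the same cells more often than others. Cxcr4 was in 27.6% of the 105 Tip ECs with Esm1 and in 11.97% of those without (24.3% and 11.8% with 1 cell per barcode family). It was also in 18.9% of Tip ECs with Chst1 and 12.4% of those without. Mcam was in 39.5% of Tip ECs with Cxcr4 and 28.2% of those without, and Fscn1 in 33.3% and 23.3%. Plaur went the other way, in 1.36% of Tip ECs with Cxcr4 and 2.01% of those without. Trp53i11 and Chst1 showed no such difference, with Chst1 in 16.4% of cells with Trp53i11 and 16.6% of cells without. These shares pool cells of the 6 replicates and are given as a description.

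Across the 18 EC sums, log2(CPM + 10) of Trp53i11 ran closest with Chst1 (Pearson r = 0.93), Mcam (0.90) and Cxcr4 (0.90). The lowest value was for Esm1 and Plaur (0.31). Sums of one replicate share their library and depth, and the 3 subtypes differ in most of these genes, so the values describe the subtypes as much as the replicates. Over the 42 sums of all cell types with at least 20000 UMIs, among 7445 genes, genes most like each member were as follows. For Esm1 they were Gm14207 (r = 0.87), Cacna1e (0.85) and Clec1a (0.85), for Trp53i11 Vwf (0.89), Clec1a (0.87) and Apod (0.85), and for Chst1 Pmaip1 (0.83) and Cmtm6 (0.80). Cxcr4 was nearest to Pmepa1 (0.83), Clec1a (0.80) and Apln (0.80), and Mcam to Col4a1 (0.92), Tagln2 (0.91) and Cnn2 (0.91). Plaur was nearest to Procr (0.81), Fxyd5 (0.80) and Ctsw (0.79), and Fscn1 to Spock2 (0.87), Vwa1 (0.87) and Pdgfb (0.84). Clec1a, a C-type lectin, was on the list of 3 members, with 295.6 ± 101.0 CPM in Tip and 87.1 ± 23.9 CPM in Structural ECs (SD, n = 6). Spock2 ran with Fscn1 only when other cell types were included, and against it among the 18 EC sums (r = -0.66).

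The study asked how loss of eNOS changes the genes of each EC subtype. The genotypes were compared by edgeR's quasi-likelihood test on the 3 sums of each, fitted over all genes with enough UMIs, and a gene was called at a Benjamini-Hochberg adjusted p of 0.05. The labels' genotype could not be checked by the targeted gene. Nos3, which encodes eNOS, was 26.5 ± 8.94 CPM in all ECs of eNOS+/+ and 23.3 ± 8.55 CPM in those of eNOS-/- (n = 3 each), a log2 fold change of -0.29 (SE 0.35, edgeR adjusted p = 0.969). The sources used here do not say which part of the gene is deleted, and tags near the 3' end outside that part check nothing. Fewer cells with a transcript and less of it per cell cannot be told apart in these sums.

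No member was called in Tip ECs. Of the 5510 genes tested there, 1 was called (0.0181%), and 273 had an unadjusted p under 0.05. The log2 fold change of eNOS-/- over eNOS+/+ was 0.33 for Esm1 (SE 0.36, approximate 95% interval -0.38 to 1.04) and 0.14 for Trp53i11 (SE 0.25, -0.35 to 0.63). For Chst1 it was -0.20 (SE 0.27, -0.73 to 0.32), and for Cxcr4 0.26 (SE 0.29, -0.31 to 0.84). Mcam had the value farthest from 0 for its SE, at -0.36 (SE 0.24, -0.84 to 0.12). Plaur had -0.24 (SE 0.38, -0.98 to 0.49) and Fscn1 -0.29 (SE 0.25, -0.78 to 0.19). The edgeR adjusted p was 0.985 or more for all 7. For no member did the replicates of the 2 genotypes separate, where they did for 10.3% of genes tested, and intervals as wide as these leave room for changes of moderate size either way.

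In Tip ECs eNOS-/- replicate 3 held the lowest values of Esm1, Chst1, Cxcr4 and Mcam, below all 5 other replicates. That sum was the shallowest of the Tip ECs, with 67 cells and 142593 UMIs, of which 8 were of Esm1. It also had the highest mural marker level of the Tip sums (238.4 CPM, others 4.61 to 48.1), with 1 of 8 mural markers, the pericyte receptor Pdgfrb, at 0 over all Tip ECs and no cell with 2 of them. Their part in the low values was not tested. Trp53i11, Plaur and Fscn1 in that replicate lay inside the range of the others.

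In Structural ECs no member was called either, beside 2 of 7577 genes (0.0264%) and 418 genes at an unadjusted p under 0.05. Cxcr4 averaged 47.2 ± 27.2 CPM in the eNOS+/+ and 103.0 ± 25.8 CPM in the eNOS-/- sums (SD, n = 3), a log2 fold change of 0.98 (SE 0.37, edgeR adjusted p = 0.864). The 3 eNOS-/- values were above the 3 eNOS+/+ values, and it was the 1 member of 7 whose genotypes did not overlap, where 10.5% of genes tested did not. Markers of B cells, some of which carry Cxcr4, were as a sum also higher in eNOS-/-. Whether such cells had a part in the Cxcr4 values was not tested. The summed level of the 9 B cell markers in the table was 194.4 to 384.3 CPM in eNOS+/+ and 415.8 to 568.1 CPM in eNOS-/- Structural ECs. None was at 0 over all of them, and Ebf1 among them was highest in mural cells. Without the cells that carried 2 or more of these markers, the levels overlapped, at 106.0 to 164.9 CPM in eNOS+/+ and 135.8 to 260.6 CPM in eNOS-/-. Of the 178 Structural cells with Cxcr4, 6 had 2 or more of these markers. With all such cells left out, the log2 fold change of Cxcr4 was 0.99 (SE 0.39, edgeR adjusted p = 0.859). It was 0.88 without the cells with mural markers and 1.13 with 1 cell per barcode family (edgeR adjusted p = 0.738 and 0.769).

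Esm1 in Structural ECs was 122.1 ± 139.2 CPM in eNOS+/+ against 41.6 ± 21.3 CPM in eNOS-/- (SD, n = 3), a log2 fold change of -1.41 (SE 0.61, edgeR adjusted p = 0.868). The 1 barcode family of eNOS+/+ replicate 1 carried much of this value. With 1 cell per family the log2 fold change was -0.74 (SE 0.50), and without that replicate it was 0.24. With no filter on low counts Esm1 was called in Structural ECs (-1.37, SE 0.31, edgeR adjusted p = 0.00371), as 1 of 74 genes, and under the other settings its adjusted p was 0.437 or more. The other 5 members had log2 fold changes of -0.38 (Plaur) to 0.43 (Chst1), and those of Chst1 and Mcam turned from 0.43 and 0.20 to -0.13 and -0.02 without the cells with mural markers.

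**Figure D5:**
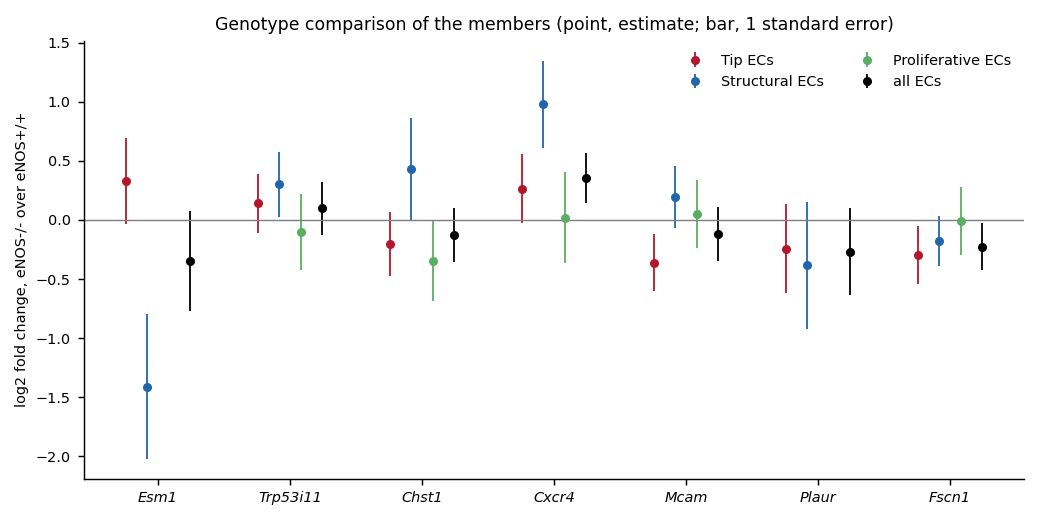
Log2 fold change of eNOS-/- over eNOS+/+ (y axis) of each member (x axis) in the EC subtypes and all ECs by edgeR. Bars show the SE. The approximate 95% intervals, which are not drawn, include 0 except for Cxcr4 and Esm1 in Structural ECs, and no member was called.

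In Proliferative ECs 5 members had enough UMIs to be tested, with log2 fold changes of -0.35 (Chst1) to 0.05 (Mcam), and Esm1 and Plaur were too scarce. None was called, beside 1 of 4607 genes (0.0217%). Over all ECs the values ran from -0.35 to 0.36, the latter for Cxcr4 (edgeR adjusted p = 0.892), and again none was called, beside 2 of 9483 genes (0.0211%). No member had separate genotypes in Proliferative ECs or in all ECs, where 10.8% and 10.4% of genes tested had. The genes that were called were AI506816, a transcript at chr5:23698296-23712667, lower in eNOS-/- in all 4 comparisons, and Igkc, the immunoglobulin kappa constant region, higher in Structural and all ECs. Nos3, the targeted gene, lies on the same chromosome as AI506816, at chr5:24364810-24384474. Loss of eNOS and nearness to the targeted gene cannot be told apart for AI506816 in this design.

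Whether the genotype change differed between Tip and Structural ECs was tested as an interaction over 12 sums. None of 7315 genes was called (0%), with 265 at an unadjusted p under 0.05. The change of Esm1 was 1.47 higher on the log2 scale in Tip than in Structural ECs (SE 0.47, edgeR adjusted p = 0.999), and place 14 of all genes when ordered by p. With 1 cell per barcode family it was 0.83 (SE 0.40). With no filter on low counts Esm1 was among 5 genes called (1.497, SE 0.32, edgeR adjusted p = 0.0133), and under the other settings its adjusted p was 0.862 or more. Without eNOS+/+ replicate 1 the value was 0.29. For Mcam the difference was -0.43 (SE 0.23) and for Cxcr4 -0.63 (SE 0.40), both with an edgeR adjusted p of 0.999.

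Outside the ECs, each member was compared between genotypes in the type with its highest mean over the 6 sums, by a two-sided exact permutation test over 3 against 3 replicates, which cannot go below p = 0.1. The test took all 6 sums, also those of under 20000 UMIs, which the means given above leave out, and the type can therefore be another than the highest by those means. In mural cells Cxcr4 was 0, 0 and 34.7 CPM in eNOS+/+ and 79.1, 110.4 and 134.7 CPM in eNOS-/-. That gave the smallest p the design allows (exact p = 0.1, adjusted p = 0.7 over the 7 members), from 29 UMIs in all. The genotypes did not overlap here, and the share of all genes without overlap in mural cells is not given. The mural sums of eNOS+/+ were shallow, with 11323, 20148 and 28817 UMIs from 3, 30 and 41 cells. Those of eNOS-/- held 75864 to 96487 UMIs, so depth and genotype cannot be told apart for these low counts. Mcam in mural cells was 176.6, 1389.7 and 1214.6 CPM in eNOS+/+ and 856.8, 907.7 and 787.7 CPM in eNOS-/- (exact permutation p = 1), and its low value came from 3 cells of eNOS+/+ replicate 1, a sum of 11323 UMIs. For the other 5 members the adjusted p was 1, and Esm1 in immune cells and Plaur in neurons rested on 3 and 5 UMIs.

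The genes around the members were read from lists that were chosen with earlier results of these data known. Of 30 other tip cell genes, 29 had enough UMIs, and 22 were higher in Tip than in Structural ECs in 6 of 6 replicates, with a median log2 ratio of 0.66. Adm (2.82), Apln (2.71) and Kcne3 (2.48), a vasodilator peptide, the apelin ligand and a potassium channel subunit, stood at places 1 to 3 of all genes, above every member. Only these 3 and Angpt2 (2.44), of the 29, had a higher ratio than Chst1 and Trp53i11. Adm, Apln and Angpt2 are also genes by which the study described its Tip ECs. Their places therefore describe that cluster and are no test of it.

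Around Cxcr4, its ligand Cxcl12 went the other way, with 42.5 ± 19.9 CPM in Tip and 383.8 ± 136.7 CPM in Structural ECs (SD, n = 6), lower in 6 of 6 replicates. The share of all genes lower in every replicate is not given here. Ackr3, the scavenging receptor of the same ligand, was 52.3 ± 17.1 against 13.04 ± 9.12 CPM, higher in 6 of 6 and too scarce for the ranking. Of the 4 genes of this list with 200 UMIs, 1 (Gnai2, 0.40) was higher in every replicate. Around Plaur, the integrin Itgb1, which acts beside the urokinase receptor, was higher in 6 of 6 (log2 ratio 0.46). Plau, urokinase itself, was 51.8 ± 27.3 against 45.9 ± 17.9 CPM, within its spread.

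Around Fscn1, 9 of the 14 actin bundling and filopodia genes, Fscn1 included, were higher in 6 of 6 replicates. The leading others were Lcp1, an actin bundler (1039.9 ± 241.5 against 436.9 ± 88.9 CPM), and Myo10, the motor of filopodial tips (896.4 ± 161.3 against 512.7 ± 79.4 CPM). Ezr, a linker of actin to the membrane, was lower in 6 of 6 (19.4 ± 11.98 against 60.9 ± 12.6 CPM), again without a share of all genes to set beside it. Around Chst1, 2 of 6 sulfotransferases were higher in every replicate, Chst1 itself and Chst2 (log2 ratio 0.81). Around Trp53i11, 2 of 6 genes of p53 and its targets were, Trp53i11 and the cell cycle inhibitor Cdkn1a (826.7 ± 118.6 against 318.4 ± 85.2 CPM), and Trp53 itself did not differ beyond its spread (141.2 ± 40.8 against 142.4 ± 35.2 CPM). Around Mcam, 4 of 8 genes were, led by the laminin chains Lamb1 (1.52), Lamc1 (1.35) and Lama4 (1.32), of which Lama4 encodes a known partner of Mcam.

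Between the genotypes none of the genes on these lists was called in any of the 4 comparisons. The smallest adjusted p was 0.583, for Bax, a p53 target of apoptosis, in Proliferative ECs (log2 fold change -1.07, SE 0.38, edgeR). Bax was also lower, without being called, in Tip ECs (-0.96), Structural ECs (-0.86) and all ECs (-0.90). Pdgfb, which recruits pericytes, had -0.67 in Tip ECs (SE 0.25, edgeR adjusted p = 0.701), and Lama4 had 0.75 in Structural ECs (SE 0.24, edgeR adjusted p = 0.733).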

How the data were processed

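UMI counts were deposited for 20822 genes in 8944 cells. The authors made them with bcl2fastq, kb-python and Seurat 3 on GRCm38/mm10, and left out cells with fewer than 100 genes or over 10% mitochondrial genes, and clusters of erythrocytes and pigment epithelium. The annotation counted on is not given in the sources used here. Cell types are the authors'. Of the metadata, 12 further columns entered no analysis, among them a doublet call that reads singlet for every cell deposited, and no doublet caller was run here. Members and lists were chosen with earlier results of these data known. UMIs were summed per replicate and cell type, and sums of under 20000 UMIs entered no mean, but entered the exact permutation tests, which need all 6. Retinas were pooled, so p-values measure the spread between pools.

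Genotypes were compared with edgeR 4.0.16 (R 4.3.3; quasi-likelihood, filterByExpr, TMM, genotype alone) and Benjamini-Hochberg adjustment over all genes tested, and the interaction with the replicate as a term. The fit was tried on counts simulated from its own model with changes larger than those of the members. That trial does not show how well changes of the members' size are found. The study compared cells, which the sums replace. Exact permutation tests used scipy 1.17.1. Intervals of log2 fold changes are normal intervals from the SE.

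Named were the 7 members, the 3 most correlated genes of each, called genes, and of each list at most 4 of smallest unadjusted p and the 3 highest in Tip over Structural ECs. Cxcl12, Plau, Trp53, Ezr, Sox17, Efnb2, Jam2 and Angpt2 were named after their values were seen. The values of 1 gene that the rule named are not reported here. Alternatives were DESeq2 1.42.0, RLE scaling, no filter, each replicate left out, a replicate block, cells with at least 500 UMIs, no mitochondrial genes, 1 cell per barcode family, 1 fit over 18 sums, per-cell means, and for shares thinning to 300 UMIs in place of 500. Leaving out ECs with mural or B cell markers, and 1 cell per family for the interaction and shares, were chosen after seeing the data. Promoters are RefSeq's (GRCm38.p6), and 20470 genes matched the GENCODE annotation by name.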

Additional observations from a re-analysis of the deposited data

Results flagged for a closer look

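A sample stood apart from the other 5 in 2 of 28 values examined, by the gap to its neighbour over the whole range (Dixon's critical value at 95%), and chance alone gives about 1 such value in 20. The first was Esm1 in Structural ECs, where eNOS+/+ replicate 1 was highest at 282.0 CPM with the next value at 60.8 CPM; 84 of its 113 UMIs lay in 1 barcode family. The second was the log2 ratio of Chst1 in Tip over Structural ECs, where eNOS-/- replicate 3 was lowest at 0.37. Its Structural ECs held 160.7 CPM of Chst1, and 57.4 CPM without the cells with mural markers. The mural cells of that replicate held 0 Chst1 UMIs, and the cause was not tested.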

How the results depend on the processing

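The numbers of genes called between the genotypes in Tip, Structural, Proliferative and all ECs, in that order, were 1, 2, 1 and 2. They were 8, 74, 10 and 84 with no filter on low counts, 2, 3, 1 and 3 by DESeq2, 2, 0, 1 and 1 in cells with at least 500 UMIs, 2, 0, 8 and 1 with 1 cell per barcode family, and 1, 3, 5 and 2 without the ECs with mural markers. One fit over 18 sums called 1 in Structural ECs, and none were called there (0) without the cells with B cell markers. The interaction, with 0 genes called, had 5 with no filter. The cause of these shifts was not tested, other than that the filter changes the genes tested and several settings leave out cells. With each replicate left out in turn, the counts ran from 0 to 25 in Tip, 0 to 28 in Structural, 0 to 73 in Proliferative and 0 to 78 in all ECs, and from 0 to 1 for the interaction. The high ends all came without eNOS-/- replicate 3, except that of the interaction, without eNOS-/- replicate 1. The counts of 0 came without eNOS+/+ replicate 2 in Tip ECs, without any eNOS+/+ replicate or eNOS-/- replicate 1 in Structural ECs, without eNOS+/+ replicate 1 or 2 or eNOS-/- replicate 1 in Proliferative ECs, and without eNOS+/+ replicate 2 or eNOS-/- replicate 1 in all ECs. No member was called with any replicate left out.

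The direction of a member's log2 fold change turned when 1 replicate was left out for these, given as lowest to highest value. In Tip ECs they were Trp53i11 -0.032 to 0.36, Chst1 -0.40 to 0.022 and Cxcr4 -0.012 to 0.54. In Structural ECs they were Esm1 -1.95 to 0.24, Plaur -0.80 to 0.20, Chst1 -0.12 to 1.05 and Mcam -0.087 to 0.39. In Proliferative ECs they were Cxcr4 -0.18 to 0.28, Mcam -0.23 to 0.31, Fscn1 -0.35 to 0.31 and Trp53i11 -0.40 to 0.16. In all ECs they were Esm1 -0.79 to 0.15, Trp53i11 -0.047 to 0.38, Plaur -0.55 to 0.063 and Chst1 -0.28 to 0.15. For the interaction they were Plaur -0.17 to 0.42, Fscn1 -0.23 to 0.11, Trp53i11 -0.37 to 0.021 and Chst1 -0.95 to 0.058. Other settings turned the direction of values near 0. In Proliferative ECs, Fscn1 was 0.053 by DESeq2 and 0.0028 with no filter, Cxcr4 -0.053 in cells with at least 500 UMIs, and Mcam -0.034 without the ECs with mural markers. Without those ECs, Chst1 and Mcam in Structural ECs were -0.13 and -0.018, and the interaction of Trp53i11 was 0.039. With 1 cell per barcode family the interaction of Plaur was -0.060. With no filter, Esm1 was called in Structural ECs (log2 fold change -1.37) and for the interaction (1.497). The cause was not tested.

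The replicate numbers are not stated to pair the samples. Same-numbered replicates deviated from their group means with correlations of -0.08 to 0.13, not every pair was above 0.1, and the replicates did not all correlate best with their own number. With the number as a replicate block, 1, 11, 3 and 2 genes were called, no member was, and Trp53i11 in Proliferative ECs was 0.019. The ratios of Tip over Structural ECs kept their direction for all 7 members under every setting tried. Depth limits Plaur most, at 6 to 45 UMIs in each Tip or Structural sum, followed by Esm1 in the smaller sums.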

Other observations

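Among the genes listed beside the members, some were lower in Tip than in Structural ECs in 6 of 6 replicates. The share of all genes that were so is not given here, and those named below were chosen after their values were seen. Sox17, a transcription factor of arterial endothelium, was 126.5 ± 27.8 against 240.8 ± 103.4 CPM, Efnb2, the arterial ephrin, 71.2 ± 33.8 against 109.8 ± 24.5 CPM, and the junction molecule Jam2 60.8 ± 20.98 against 113.4 ± 25.05 CPM (SD, n = 6).

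Apln, the apelin ligand, had a log2 fold change of 0.89 between genotypes in Structural ECs (SE 0.29, edgeR adjusted p = 0.733). Its 3 eNOS-/- values were above its 3 eNOS+/+ values. Daam1, a formin of filopodia, had 0.70 (SE 0.29, edgeR adjusted p = 0.868), also without overlap. Of all genes tested in Structural ECs, 10.5% had genotypes without overlap. Neither Apln nor Daam1 was called.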
